A study of Mus musculus with 6 samples.

Results

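The 34 genes described here encode proteins of the lysosome: cathepsin proteases, acid hydrolases, membrane glycoproteins, sterol exporters and cofactors, a calcium channel with its transcription factors, and subunits of the proton pump. They were chosen by name, as a fixed list of mouse gene symbols, from a table of 54532 genes, and all 34 were found once each. All 34 also passed the filter on low values, a mean of at least 0.5 FPKM over the 6 tumors, as did 15820 genes in all. FPKM counts fragments per kilobase of transcript and is scaled to the total of each sample.

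The samples were 6 whole mouse melanomas, 3 labelled Gli2CA (an active form of Gli2, which acts in Hedgehog signalling as a transcription factor) and 3 labelled NTC (a non-targeted control). Both groups came from the same line, BRAFV600EPTEN-/-, cultured with 10% serum and 1 ug/mL puromycin. The tumors of both groups grew for 28 days in C57Bl/6 mice from 1000000 cells given in 100 uL of a matrigel and PBS mix. The sources used here do not say how active Gli2 was introduced, whether each group is 1 clone, or whether each tumor came from its own mouse. The p-values therefore cover only the variation among these 6 samples, part of which may be technical. Each tumor was taken whole, so host cells are part of every sample.

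Lysosomes are acidic organelles in which proteases, glycosidases and lipases break down material brought in by endocytosis, phagocytosis and autophagy. A proton pump of many subunits, the V-ATPase, acidifies them, and the transcription factors TFEB and TFE3 switch on many of their genes by binding E-box elements. Macrophages are rich in lysosomes, and secreted cathepsins of tumor cells and macrophages can digest matrix.

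Fragments computed back from FPKM summed to between 16215356 and 20113898 in the tumors labelled Gli2CA, against 17653371 to 22135011 in the NTC tumors. Gli2 itself stood at 3.22, 5.82 and 1.61 FPKM in the tumors labelled Gli2CA, against 8.88, 11.1 and 7.96 FPKM in the NTC tumors (in limma, log2 fold change -1.4, SE 0.38, adjusted p = 0.0853). These values do not show the active form that the label names. Whether that form would be counted under mouse Gli2 is not known here, so the label could not be checked in this way. Every direction below is therefore that of the libraries labelled Gli2CA against those labelled NTC. Of 10 melanocyte markers, 5 genes of pigment synthesis and transport (Tyr, Tyrp1, Dct, Slc45a2 and Oca2) lay under 0.1 FPKM in every tumor, and Mlana and Trpm1 reached at most 0.504 and 0.579 FPKM. The melanosome gene Pmel ran from 0.673 to 1.96 FPKM, and the lineage factors Mitf and Sox10 from 6.08 to 10.4 FPKM and from 51.5 to 177 FPKM over the 6 tumors. Skeletal muscle genes were high in Gli2CA replicates 1 and 3 and NTC replicate 3, with 5 markers summing to 945.7, 324.5 and 1378 FPKM in these and to 16.8 FPKM or less in the other 3. Fat cell genes were highest in Gli2CA replicate 3 and NTC replicate 1.

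Lysosomal genes leaned towards lower levels in the tumors labelled Gli2CA without any single member passing the threshold. Of the 34 members, 25 had a negative log2 fold change (Gli2CA minus NTC) and 9 a positive one, where 52.6% of all tested genes were negative. The median of the members was -0.37, beside -0.04 over all tested genes. The alpha-mannosidase gene Man2b1, the alpha-glucosidase gene Gaa, the transcription factor gene Tfeb and the progranulin gene Grn stood at 0.376, 0.365, 0.495 and 0.468 of their NTC means. Cathepsin L, the tetraspanin gene Cd63 and the proton pump subunit gene Atp6v0d2 had estimates of the opposite sign, higher in all 3 tumors labelled Gli2CA than in every NTC tumor.

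In limma, at an adjusted p under 0.05, 0 of 34 members passed, where 0.348% of all tested genes did, 42 higher (0.265%) and 13 lower (0.0822%). Limma-voom on the recovered fragments also gave 0 members, where 0.671% of genes passed. The smallest adjusted p among the members was 0.0636, for Man2b1. At an adjusted p under 0.1 there were 7 members, all lower, where 6.13% of tested genes were lower and 5% higher at that level. At an unadjusted p under 0.05 there were 12 members lower (35.3%) and 3 higher (8.82%), against a background of 14.7% of tested genes lower and 12.8% higher. The higher count was 0 with quantile normalization, with protein-coding genes rescaled, without Gli2CA replicate 3 and without NTC replicate 2, and 1 without NTC replicate 1. The lower count was 18 with protein-coding genes rescaled, and without 1 tumor it ran from 8 (without Gli2CA replicate 3 or NTC replicate 1) to 15. The groups did not overlap for 14 members on the lower side and 3 on the higher side, where 17.9% and 15.9% of tested genes were so separated. The other 17 members overlapped.

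**Figure D1:**
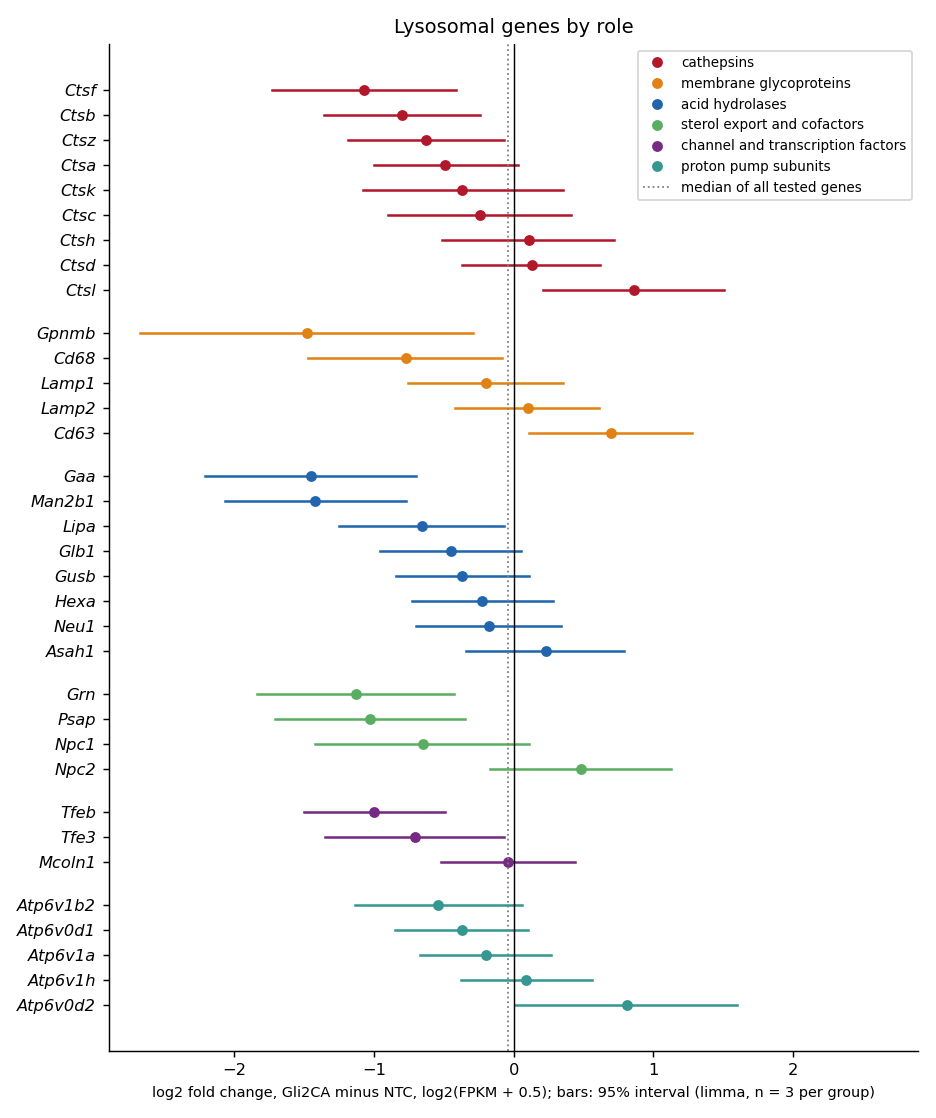
Log2 fold change of each of the 34 members (x axis, Gli2CA minus NTC on the log2(FPKM + 0.5) scale), ordered by role down the page, with 95% intervals from limma (n = 3 per group). Gpnmb at -1.48, Gaa at -1.45 and Man2b1 at -1.42 lie farthest to the left and Ctsl at 0.86 farthest to the right.

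The promoters of several members hold the E-box CACGTG, the core of the element that TFEB and TFE3 bind. RefSeq promoter windows of 300 bases (250 before the start and 50 after, GRCm38.p6) were available for 27 of the 34 members. The letters CACGTG, which read the same on both strands, were found in 10 of these 27 genes (37.0%), against 8.09% of the 27025 genes in that table and 11.2% of its genes that were tested here. With 1 more base, TCACGTG on either strand, which always overlaps a CACGTG, the counts were 8 of 27 (29.6%), against 4.29% of all genes in the table and 6.65% of its tested genes. Among 71 other lysosomal genes in the table, 15 (21.1%) held CACGTG and 14 (19.7%) held TCACGTG. By role the shorter motif lay in 4 of 7 cathepsin genes, 2 of 7 acid hydrolase genes, 0 of 3 genes of sterol export and cofactors, 1 of 5 membrane glycoprotein genes, 1 of 3 channel and transcription factor genes and 2 of 2 proton pump genes. A match is a string of letters, not a measured binding site.

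The promoters below, from 250 bases before the RefSeq start to 30 after it, are those of the 5 members with CACGTG and the smallest p, and of Lamp1, chosen after its count of 4 matches was seen. Each is printed 5′ to 3′ on the strand of its gene, with CACGTG in capitals.
Gaa, chr11:119267713-119267992, plus strand: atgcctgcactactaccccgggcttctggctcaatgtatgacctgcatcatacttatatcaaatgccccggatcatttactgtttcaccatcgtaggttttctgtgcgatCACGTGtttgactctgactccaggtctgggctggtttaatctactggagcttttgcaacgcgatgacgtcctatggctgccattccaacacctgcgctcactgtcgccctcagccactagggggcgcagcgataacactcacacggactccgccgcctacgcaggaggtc
Ctsf, chr19:4854915-4855194, plus strand: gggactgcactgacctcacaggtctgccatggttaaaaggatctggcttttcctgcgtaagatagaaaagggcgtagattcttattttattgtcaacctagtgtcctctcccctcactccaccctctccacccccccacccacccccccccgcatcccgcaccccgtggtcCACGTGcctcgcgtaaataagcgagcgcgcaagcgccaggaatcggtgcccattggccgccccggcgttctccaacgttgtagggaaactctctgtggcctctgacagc
Ctsl, chr13:64370491-64370770, minus strand: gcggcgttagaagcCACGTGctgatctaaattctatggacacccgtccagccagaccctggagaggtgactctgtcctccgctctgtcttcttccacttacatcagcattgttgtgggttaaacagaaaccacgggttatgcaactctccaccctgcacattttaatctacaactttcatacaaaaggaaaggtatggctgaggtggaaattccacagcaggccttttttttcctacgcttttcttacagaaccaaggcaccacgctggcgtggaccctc
Ctsa, chr2:164833523-164833802, plus strand: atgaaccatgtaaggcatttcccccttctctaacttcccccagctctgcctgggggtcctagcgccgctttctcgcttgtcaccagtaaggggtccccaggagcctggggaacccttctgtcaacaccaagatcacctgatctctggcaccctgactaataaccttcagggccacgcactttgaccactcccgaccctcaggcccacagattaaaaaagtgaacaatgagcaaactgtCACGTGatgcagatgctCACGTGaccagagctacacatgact
Glb1, chr9:114400828-114401107, plus strand: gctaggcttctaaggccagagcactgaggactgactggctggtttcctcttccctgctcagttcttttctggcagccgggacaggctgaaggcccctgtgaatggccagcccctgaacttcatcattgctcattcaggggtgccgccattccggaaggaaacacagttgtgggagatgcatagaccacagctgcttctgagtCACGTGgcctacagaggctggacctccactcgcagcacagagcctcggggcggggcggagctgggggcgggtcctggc
Lamp1, chr8:13158911-13159190, plus strand: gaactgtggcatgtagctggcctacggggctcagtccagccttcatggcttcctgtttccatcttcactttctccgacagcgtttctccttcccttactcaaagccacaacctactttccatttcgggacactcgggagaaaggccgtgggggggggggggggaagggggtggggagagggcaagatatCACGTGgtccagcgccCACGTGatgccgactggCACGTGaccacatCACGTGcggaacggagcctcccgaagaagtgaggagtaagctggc

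The match lies 140 bases before the start in Gaa, 79 before it in Ctsf, 236 before it in Ctsl and 48 before it in Glb1. Ctsa, which has 2 RefSeq starts, holds 2 matches in the window printed, on either side of that start, and none in the other, and Lamp1 holds 4 within its last part before the start. Of the 10 members with CACGTG, 8 had negative estimates: Gaa at -1.45, Ctsf at -1.07, Ctsa at -0.49, Glb1 at -0.45, Atp6v0d1 at -0.37, Atp6v1a and Lamp1 at -0.20 and Mcoln1 at -0.04. The other 2 were Ctsl at 0.86 and Ctsd at 0.13. Over all 34 members 25 were negative, and among members with a window but no CACGTG only Cd63, Npc2 and Lamp2 were positive. Negative estimates were thus seen both with and without the motif in these windows. Whether the motif has a part in the differences was not tested. Gpnmb, Man2b1, Grn, Psap and Tfeb, among the members with the lowest log2 fold changes, hold no CACGTG in their windows.

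Cathepsins, the proteases of the lysosome, split by gene. Of 9 members, 6 had negative estimates and 3 positive ones (median -0.37, range -1.07 to 0.86), and 0 passed the threshold. The highest Gli2CA value of Ctsf, Ctsb, Ctsz and Ctsa was under the lowest NTC value, and for Ctsl the lowest Gli2CA value was above the highest NTC value. Ctsc, Ctsd, Ctsh and Ctsk overlapped.

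Ctsf (ENSMUSG00000083282, chromosome 19, 4855130 to 4860918, plus strand, GENCODE M21 on GRCm38, as are all gene positions here) encodes the cysteine protease cathepsin F. It stood at 5.85, 10.3 and 5.32 FPKM in Gli2CA replicates 1 to 3, against 18.6, 13.2 and 13.5 FPKM in NTC replicates 1 to 3, from 106 to 164 fragments in the tumors labelled Gli2CA and 236 to 409 in NTC tumors. The 2 lowest tumors were Gli2CA replicates 1 and 3, and the groups did not overlap. The estimated log2 fold change of -1.07 had an SE of 0.29 and an adjusted p of 0.0855.

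Ctsb (ENSMUSG00000021939, chromosome 14, 63122462 to 63145923, plus strand) encodes cathepsin B, a cysteine protease that can act inside and outside the cell. It stood at 725, 655 and 682 FPKM in Gli2CA replicates 1 to 3, against 1032, 1335 and 1252 FPKM in NTC replicates 1 to 3. The Gli2CA values lay close together and all below the lowest NTC value (log2 fold change -0.80, SE 0.25, adjusted p = 0.0977). Ctsz, the carboxypeptidase cathepsin Z, averaged 189 ± 44.5 FPKM in the tumors labelled Gli2CA and 289.6 ± 34.9 FPKM in NTC tumors (SD, n = 3 each; adjusted p = 0.149). Ctsa, the serine carboxypeptidase that also protects beta-galactosidase and neuraminidase, averaged 205 ± 31.7 FPKM in the tumors labelled Gli2CA and 287 ± 27.8 FPKM in NTC tumors (SD, n = 3 each; adjusted p = 0.197).

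Ctsl (ENSMUSG00000021477, chromosome 13, 64359337 to 64370890, minus strand) encodes cathepsin L, an endopeptidase of broad specificity, and is described in full because of its opposite direction, seen in the data. It stood at 515, 294 and 543 FPKM in Gli2CA replicates 1 to 3, against 270, 217 and 234 FPKM in NTC replicates 1 to 3. Gli2CA replicate 2 was close to NTC replicate 1, and the other two Gli2CA values were far above every NTC value (log2 fold change 0.86, SE 0.29, adjusted p = 0.112). The ratio of Ctsl to Ctsb within a tumor is not moved by a scaling factor common to all genes of a sample. It was 0.710, 0.449 and 0.795 in Gli2CA replicates 1 to 3, against 0.262, 0.162 and 0.187 in NTC replicates 1 to 3. The ratio was higher in all 3 tumors labelled Gli2CA. It had to be, since Ctsl alone was higher and Ctsb alone lower in each of them than in every NTC tumor. The ratio thus adds no separate evidence, and this pair was picked with both values known.

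The other 4 cathepsins did not separate the groups. Ctsc, the dipeptidyl peptidase that activates granule proteases of leukocytes, averaged 408 ± 65.1 FPKM in the tumors labelled Gli2CA and 494 ± 149 FPKM in NTC tumors. Ctsk, the collagen-degrading cathepsin of osteoclasts and some fibroblasts, ran from 112 to 214 FPKM in the tumors labelled Gli2CA and from 151 to 254 FPKM in NTC tumors. Ctsh, an aminopeptidase, averaged 458 ± 59.7 and Ctsd, the main aspartic protease, 409 ± 24.6 FPKM in the tumors labelled Gli2CA, against 434 ± 121 and 374 ± 23.4 FPKM in NTC tumors (SD, n = 3 each). Their 95% intervals for the log2 fold change were -0.51 to 0.72 for Ctsh and -0.37 to 0.62 for Ctsd, so changes of up to those sizes are not shown to be absent, and both estimates turned negative with quantile normalization (-0.11 and -0.10). Of the exon bases of Ctsd, 34.4% are shared on the same strand with the annotated gene Gm49369, which is listed at 0 in all 6 tumors.

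**Figure D2:**
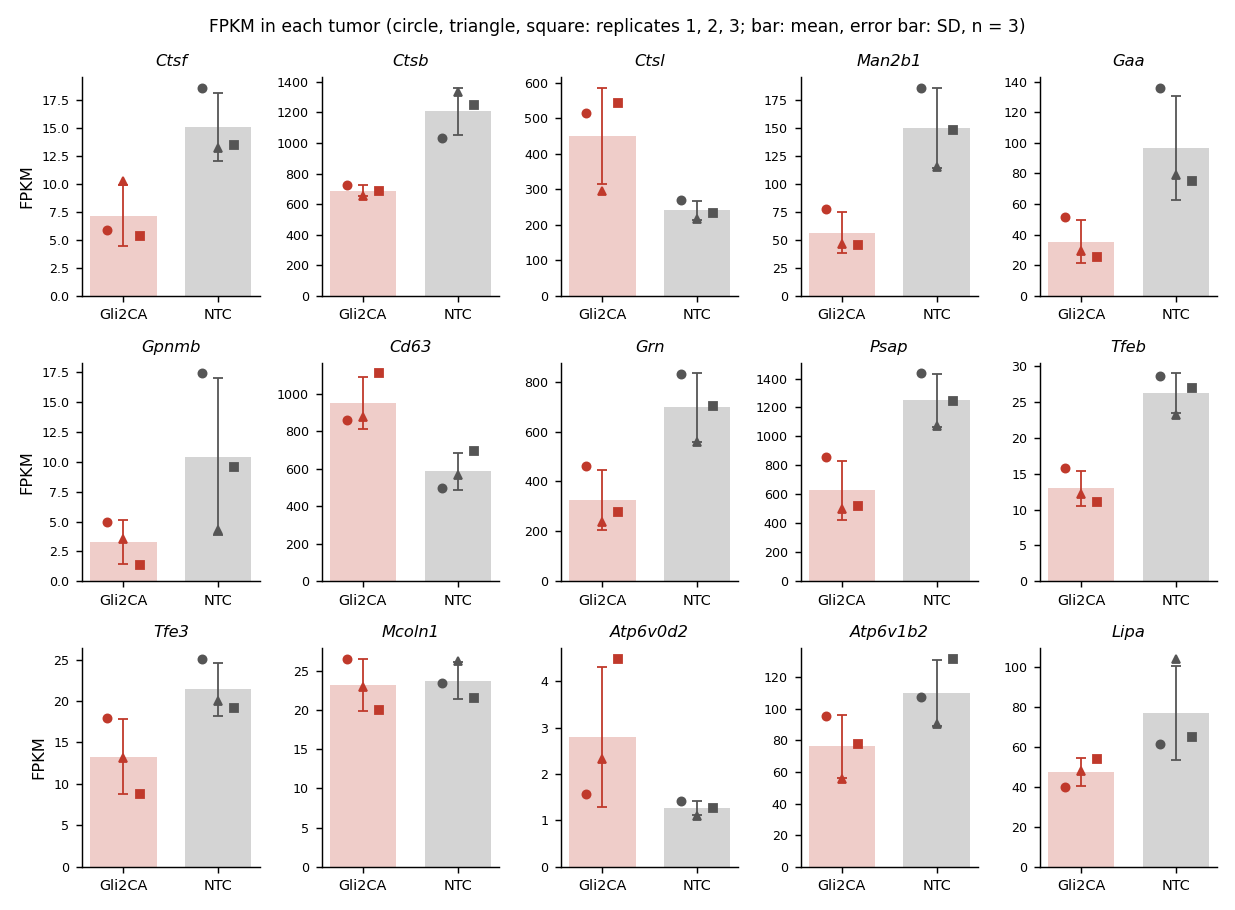
FPKM (y axis, linear, from 0) of 15 members in each tumor, Gli2CA left and NTC right, with bars at the mean and SD as error bars (n = 3 per group). Ctsb, Man2b1, Gaa, Grn, Psap and Tfeb have all Gli2CA points below all NTC points, Ctsl, Cd63 and Atp6v0d2 all above, and Mcoln1 overlaps.

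Acid hydrolases, the enzymes that trim glycans and lipids, had negative estimates in 7 of 8 members, with a median of -0.41 and 0 past the threshold. The 2 with the largest differences were glycosidases. Man2b1 (ENSMUSG00000005142, chromosome 8, 85083270 to 85098282, plus strand) encodes lysosomal alpha-mannosidase. It stood at 77.2, 46.3 and 45.2 FPKM in Gli2CA replicates 1 to 3, against 186, 115 and 148 FPKM in NTC replicates 1 to 3, so the highest Gli2CA tumor lay well below the lowest NTC tumor. The log2 fold change was -1.42 (SE 0.29, 95% interval -2.07 to -0.77, adjusted p = 0.0636).

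Gaa (ENSMUSG00000025579, chromosome 11, 119267887 to 119285454, plus strand) encodes acid alpha-glucosidase, which breaks down lysosomal glycogen. It stood at 51.2, 29.5 and 25.2 FPKM in Gli2CA replicates 1 to 3, against 136, 78.7 and 75.2 FPKM in NTC replicates 1 to 3. Replicate 1 was the highest of its group in both labels, as for Man2b1, and the groups did not overlap (log2 fold change -1.45, SE 0.33, adjusted p = 0.0691). In the ratio of means, Gaa stood at 0.365 and Man2b1 at 0.376 of the NTC level.

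Lipa, the lysosomal acid lipase of cholesterol ester breakdown, stood at 40.1, 47.8 and 54.0 FPKM in Gli2CA replicates 1 to 3, against 61.5, 104 and 65.0 FPKM in NTC replicates 1 to 3 (log2 fold change -0.66, SE 0.26, adjusted p = 0.148). Its groups were apart by a small gap, and NTC replicate 2 stood out on the high side. Smaller separated differences were seen for 2 other glycosidases. Glb1, lysosomal beta-galactosidase, averaged 13.2 ± 2.28 FPKM in the tumors labelled Gli2CA and 18.2 ± 2.39 FPKM in NTC tumors (adjusted p = 0.218). Gusb, beta-glucuronidase, averaged 57.4 ± 4.64 FPKM in the tumors labelled Gli2CA and 74.5 ± 10.2 FPKM in NTC tumors (SD, n = 3 each; adjusted p = 0.28). Hexa, the alpha subunit of beta-hexosaminidase, and Neu1, the sialidase, overlapped, with log2 fold changes of -0.23 (SE 0.22) and -0.18 (SE 0.23). Asah1, acid ceramidase, was the 1 hydrolase with a positive estimate, at 277 ± 59.1 FPKM in the tumors labelled Gli2CA and 235 ± 34.8 FPKM in NTC tumors (SD, n = 3 each), an estimate of 0.23 with an SE of 0.25.

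Among the cofactors, 2 genes encode precursors that are cut into smaller active proteins, and neither passed the threshold. Grn (ENSMUSG00000034708, chromosome 11, 102430315 to 102437048, plus strand) encodes progranulin, which is processed into granulins and supports lysosomal enzymes. It stood at 462, 238 and 278 FPKM in Gli2CA replicates 1 to 3, against 833, 558 and 701 FPKM in NTC replicates 1 to 3 (log2 fold change -1.13, SE 0.31, adjusted p = 0.0861). Psap (ENSMUSG00000004207, chromosome 10, 60277627 to 60302597, plus strand) encodes prosaposin, the source of the saposins that activate sphingolipid hydrolases. It stood at 859, 500.2 and 522 FPKM in Gli2CA replicates 1 to 3, against 1437, 1073 and 1242 FPKM in NTC replicates 1 to 3 (log2 fold change -1.03, SE 0.30, adjusted p = 0.0913). For both genes the groups did not overlap and Gli2CA replicate 1 was the highest of the tumors labelled Gli2CA.

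The 2 sterol exporters of the lysosome had estimates of opposite sign. Npc1, the membrane-bound transporter, averaged 13.4 ± 5.51 FPKM in the tumors labelled Gli2CA and 20.8 ± 6.07 FPKM in NTC tumors (log2 fold change -0.65, SE 0.34, adjusted p = 0.239). Npc2, its soluble partner that binds cholesterol, averaged 620.1 ± 35.2 FPKM in the tumors labelled Gli2CA and 461 ± 163 FPKM in NTC tumors (SD, n = 3 each), an estimate of 0.48 with an SE of 0.29. NTC replicate 3, at 649 FPKM of Npc2, stood above all 3 tumors labelled Gli2CA, so both genes overlapped between groups.

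Both transcription factor genes had lower values in the tumors labelled Gli2CA, and the channel gene overlapped. Tfeb (ENSMUSG00000023990, chromosome 17, 47737030 to 47792419, plus strand), a master factor of lysosomal genes, stood at 15.8, 12.1 and 11.1 FPKM in Gli2CA replicates 1 to 3, against 28.6, 23.1 and 26.9 FPKM in NTC replicates 1 to 3. Within each label the spread was small beside the gap between them (log2 fold change -1.0, SE 0.22, 95% interval -1.5 to -0.49, adjusted p = 0.068). Tfe3 (ENSMUSG00000000134, chromosome X, 7762560 to 7775202, plus strand), a related factor of the same family, stood at 17.9, 13.1 and 8.83 FPKM in Gli2CA replicates 1 to 3, against 25.1, 20 and 19.1 FPKM in NTC replicates 1 to 3 (log2 fold change -0.71, SE 0.28, adjusted p = 0.149). Gli2CA replicate 1 lay just under NTC replicate 3, so that the groups were apart by a narrow margin.

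Mcoln1 (ENSMUSG00000004567, chromosome 8, 3500457 to 3515232, plus strand) encodes the calcium channel TRPML1 of the lysosomal membrane. It stood at 26.5, 23.0 and 20 FPKM in Gli2CA replicates 1 to 3, against 23.5, 26.2 and 21.5 FPKM in NTC replicates 1 to 3, and the groups overlapped fully. Its 95% interval for the log2 fold change ran from -0.52 to 0.44 around -0.04 (SE 0.21, adjusted p = 0.922).

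Membrane glycoproteins spanned the widest range of log2 fold changes of any role, with a median of -0.20. Gpnmb (ENSMUSG00000029816, chromosome 6, 49036546 to 49070929, plus strand) encodes a glycoprotein of melanosomes and of lipid-laden macrophages. It stood at 4.96, 3.50 and 1.33 FPKM in Gli2CA replicates 1 to 3, against 17.4, 4.33 and 9.59 FPKM in NTC replicates 1 to 3, from 48 to 175 fragments in the tumors labelled Gli2CA and 164 to 697 in NTC tumors. Gli2CA replicate 1 stood above NTC replicate 2, so the groups overlapped, and the interval of its log2 fold change of -1.48 was wide (95% interval -2.68 to -0.29, adjusted p = 0.124).

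Cd63 (ENSMUSG00000025351, chromosome 10, 128900989 to 128912822, plus strand) encodes a tetraspanin of late endosomes, lysosomes and secreted vesicles. It stood at 861, 877 and 1111 FPKM in Gli2CA replicates 1 to 3, against 499, 565 and 696 FPKM in NTC replicates 1 to 3. All 3 tumors labelled Gli2CA were higher than every NTC tumor (log2 fold change 0.70, SE 0.26, adjusted p = 0.133). Cd68, a scavenger glycoprotein of macrophage lysosomes, stood at 90.6, 43.3 and 62.4 FPKM in Gli2CA replicates 1 to 3, against 133, 84.3 and 110 FPKM in NTC replicates 1 to 3 (log2 fold change -0.77, SE 0.31, adjusted p = 0.149), and overlapped through Gli2CA replicate 1. Lamp1 and Lamp2, the 2 main structural proteins of the lysosomal membrane, had log2 fold changes of -0.20 (95% interval -0.76 to 0.35) and 0.10 (95% interval -0.42 to 0.61), and Lamp2 turned to -0.09 with quantile normalization.

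Among the proton pump subunits, the 1 farthest from 0 was an isoform of low level. Of the 5 members, 3 had negative and 2 positive estimates (median -0.20). Atp6v0d2 (ENSMUSG00000028238, chromosome 4, 19876841 to 19922605, minus strand) encodes the d2 isoform of the membrane sector, known from osteoclasts and macrophages. It stood at 1.57, 2.33 and 4.49 FPKM in Gli2CA replicates 1 to 3, against 1.42, 1.10 and 1.28 FPKM in NTC replicates 1 to 3, from 45, 55 and 132 fragments in the tumors labelled Gli2CA and 46, 34 and 33 in NTC tumors. Gli2CA replicate 1 was barely above NTC replicate 1 and Gli2CA replicate 3 was the highest (log2 fold change 0.81, SE 0.35, adjusted p = 0.178).

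Atp6v1b2 (ENSMUSG00000006273, chromosome 8, 69088646 to 69113711, plus strand), the common B subunit of the ATP-hydrolysing sector, stood at 95.3, 55.8 and 77.8 FPKM in Gli2CA replicates 1 to 3, against 107, 90.1 and 132 FPKM in NTC replicates 1 to 3. The groups overlapped (log2 fold change -0.54, SE 0.26, adjusted p = 0.216). Atp6v0d1, the common d isoform, averaged 79.7 ± 9.79 FPKM in the tumors labelled Gli2CA and 103 ± 9.38 FPKM in NTC tumors (SD, n = 3 each; adjusted p = 0.276), without overlap. Atp6v1a, the catalytic A subunit, and Atp6v1h, the regulatory H subunit, had 95% intervals of -0.67 to 0.27 and -0.38 to 0.56. The estimate of Atp6v1h, 0.09, turned to -0.11 with protein-coding genes alone, rescaled.

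Ratios of related members within each tumor are free of any scaling factor common to all genes of a sample. Corrections that differ by gene, such as removal of a length or GC trend, can still move them. The d2 over d1 isoforms of the pump stood at 0.0182, 0.0340 and 0.0534 in Gli2CA replicates 1 to 3, against 0.0134, 0.0119 and 0.0115 in NTC replicates 1 to 3, without overlap. That separation was fixed by d2 alone being higher and d1 alone lower without overlap, as for Ctsl over Ctsb. The other ratios overlapped: Npc2 over Npc1 ran from 30.2 to 76.6 in the tumors labelled Gli2CA and from 13.8 to 42.9 in NTC tumors. Lamp2 over Lamp1 ran from 0.501 to 0.661 in the tumors labelled Gli2CA and from 0.435 to 0.513 in NTC tumors, and Tfe3 over Tfeb from 0.796 to 1.14 in the tumors labelled Gli2CA and from 0.710 to 0.877 in NTC tumors. No p is given for these ratios, since the pairs were chosen with levels known.

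**Figure D3:**
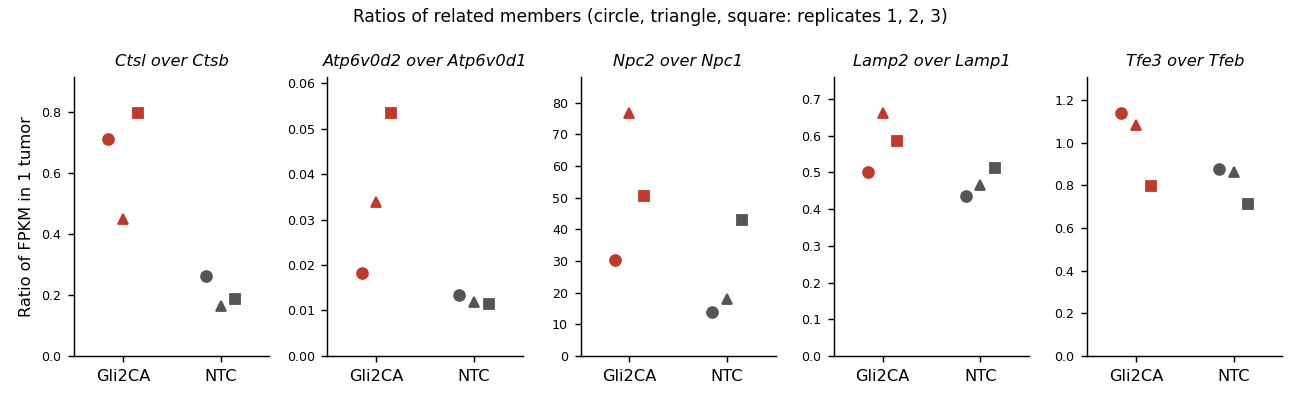
Ratio of FPKM of 2 related members in each tumor (y axis, linear, from 0), Gli2CA left and NTC right, for 5 pairs. Ctsl over Ctsb lies between 0.449 and 0.795 in the tumors labelled Gli2CA, all above the NTC tumors at 0.162 to 0.262, and Npc2 over Npc1 overlaps.

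Averaged by role, the libraries were not alike within a label. Relative to the NTC mean, the mean log2 value of the 8 acid hydrolases was -0.43, -0.60 and -0.67 in Gli2CA replicates 1 to 3, against 0.05, -0.05 and 0.00 in NTC replicates 1 to 3. The 4 genes of sterol export and cofactors stood at -0.20, -0.89 and -0.66 in Gli2CA replicates 1 to 3, against 0.17, -0.21 and 0.04 in NTC replicates 1 to 3. The hydrolases were lower in every tumor labelled Gli2CA, while for the cofactors Gli2CA replicate 1 lay at the level of NTC replicate 2. The 9 cathepsins stood at -0.24, -0.30 and -0.29 in Gli2CA replicates 1 to 3, against 0.07, -0.20 and 0.14 in NTC replicates 1 to 3. The 5 pump subunits overlapped, at -0.02, -0.24 and 0.13 in Gli2CA replicates 1 to 3, against -0.03, -0.08 and 0.12 in NTC replicates 1 to 3.

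**Figure D4:**
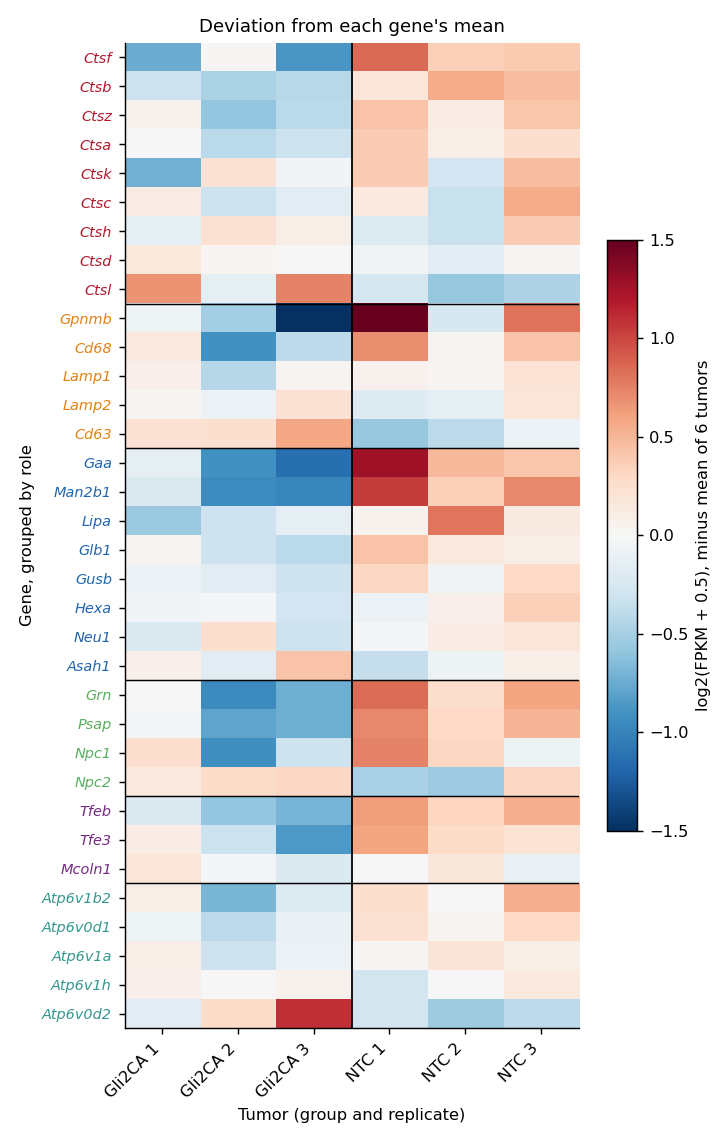
Deviation of log2(FPKM + 0.5) from the mean of the 6 tumors (colour scale) for each of the 34 members (rows, by role) in each tumor (columns, Gli2CA replicates 1 to 3 left of NTC replicates 1 to 3). Gaa, Man2b1, Grn, Psap and Tfeb are low in Gli2CA replicates 2 and 3 and high in NTC replicate 1, and Ctsl and Cd63 are higher in the tumors labelled Gli2CA than in NTC tumors.

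The rest of the lysosomal genes were taken from lists of 89 further genes, of which 80 passed the filter. Of these 80, 61 had negative and 19 positive estimates (median -0.40). At an unadjusted p under 0.05 in limma, 27 were lower (33.75%) and 4 higher (5%). Over all tested genes these shares were 14.7% and 12.8%. In limma 0 passed the threshold, where 0.348% of all tested genes did. In limma-voom 1 passed, Sort1, where 0.671% of genes did. Sort1, the sorting receptor sortilin, stood at -2.01 on the log2 fold change scale (SE 0.36, adjusted p = 0.0541), and Gga2, an adaptor of lysosomal sorting, at -0.88 (SE 0.24, adjusted p = 0.0873). Of 27 other acid hydrolases 24 were negative (median -0.46), and 0 passed. The 17 other proton pump subunits had a median of -0.05, with Atp6v0a1 at -1.11 (SE 0.28, adjusted p = 0.076) and Atp6v0b at 1.12 (SE 0.35, adjusted p = 0.0977).

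Other lists had few tested genes or mixed signs. Of 18 other membrane proteins 13 were negative, with the 2-pore channel gene Tpcn1 at -1.29 (SE 0.30) and Laptm5 of leukocyte lysosomes at -1.38 (SE 0.35). All 4 tested cathepsins outside the members were negative, with Ctse at -0.87 (SE 0.35) and Ctss, the antigen-processing cathepsin, at -0.51 (SE 0.29). Ctse averaged 0.294 FPKM in the tumors labelled Gli2CA (2 to 19 fragments) and 0.924 FPKM in NTC tumors. It passed the filter at 0.5 FPKM only through the NTC tumors, so its sign adds little to that count. The cysteine protease inhibitors Cstb and Cst7 stood at 0.81 (SE 0.31) and -0.78 (SE 0.31). Mitf and Tfec, the other factors of the TFEB family, stood at -0.58 (SE 0.22) and 0.35 (SE 0.36).

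**Figure D5:**
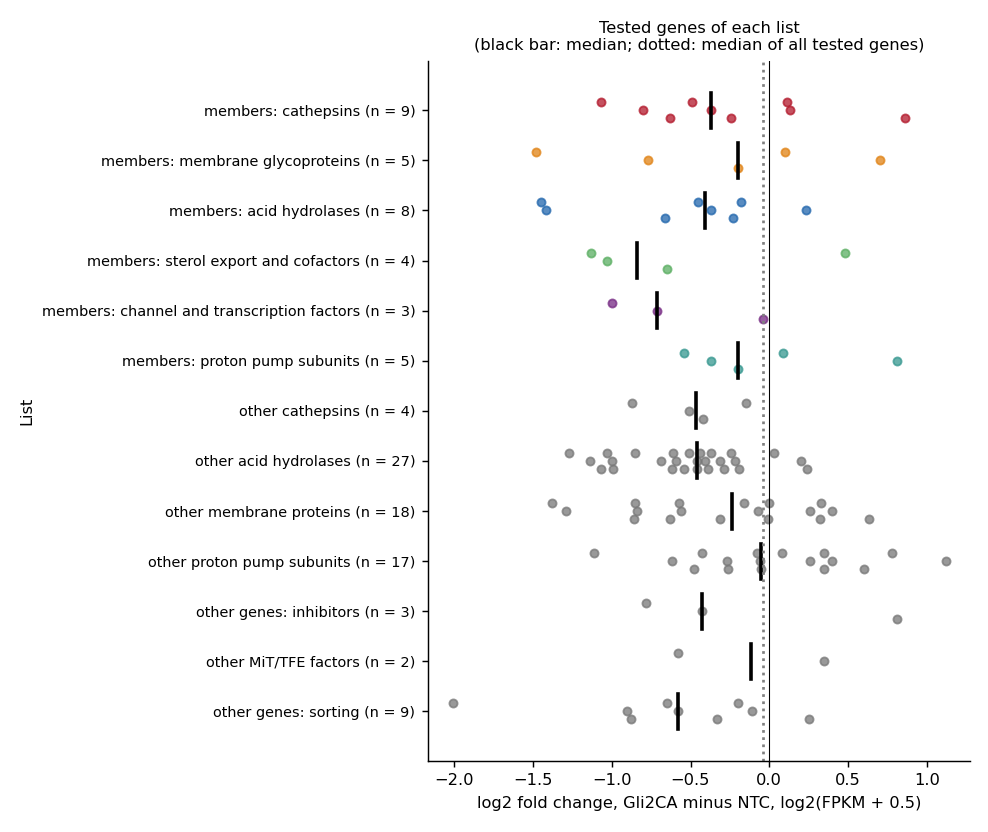
Log2 fold change (x axis, Gli2CA minus NTC, log2(FPKM + 0.5) scale) of every tested gene of the 6 member roles and of 7 lists of other lysosomal genes (y axis), each point 1 gene, with the median as a bar. Other acid hydrolases (median -0.46) lie near the member hydrolases (median -0.41), and other proton pump subunits centre at -0.05.

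Markers of cell types that carry these genes were measured beside them, and their part in the differences was not tested. In whole tumors, fewer cells of a type and less RNA per cell cannot be told apart. Of 16 macrophage markers 12 had negative estimates and 0 passed, with Csf1r at -1.43 and Cx3cr1 at -1.30. The 4 positive ones were Ms4a7 at 0.69, Tyrobp at 0.46, Lyz2 at 0.15 and Aif1 at 0.06. Without overlap 7 were lower and 1, Ms4a7, higher, where 17.9% and 15.9% of all tested genes were so separated. The summed level ran from 4346 to 5904 FPKM in the tumors labelled Gli2CA and from 4975 to 7454 FPKM in NTC tumors. Lyz2 was the largest part of each sum, at 1303 to 2577 FPKM. All 10 fibroblast markers were negative and 0 passed, with sums of 6252 to 9767 FPKM in the tumors labelled Gli2CA and 10990.3 to 33767 FPKM in NTC tumors. The collagen genes Col1a1, Col1a2 and Col3a1 were the largest parts of each sum. Of the 10 markers 6 overlapped and 4 were lower without overlap, where 17.9% of all tested genes were. Of 6 osteoclast markers 5 were tested and 4 were negative, Calcr lay under 0.1 FPKM in every tumor, and the sums were 23.9 to 51.9 FPKM in the tumors labelled Gli2CA and 36.4 to 68.7 FPKM in NTC tumors. All 7 endothelial markers were negative (sums of 78.6 to 89.1 FPKM in the tumors labelled Gli2CA and 128 to 195 FPKM in NTC tumors). Of 7 keratinocyte markers 4 were tested, 3 positive and 1, Cdh1, negative without overlap (-1.06, SE 0.33). The sums of all 7 were 49.4 to 129 FPKM in the tumors labelled Gli2CA and 12.1 to 27.2 FPKM in NTC tumors. Pkp1 was the largest part of each Gli2CA sum, with 24.3 to 105 FPKM. Krt14 had only 1 to 11 fragments per NTC tumor and passed the filter through the tumors labelled Gli2CA alone. Krt5 and Krt1 lay under 0.1 FPKM in every tumor, and Dsp reached at most 0.145 FPKM. The higher sums were thus not shared by all these markers. Of 6 T cell markers 5 were negative (median -0.76), and 0 passed. Without overlap 5 were lower, where 17.9% of all tested genes were. Cd4 stood at -1.49 (SE 0.33) and Cd3e at -1.31 (SE 0.28), but Cd3d was positive and overlapped (0.33, SE 0.49). The sums were 111 to 262 FPKM in the tumors labelled Gli2CA and 180 to 311 FPKM in NTC tumors. Cd3d made up 163 of the 262 FPKM in Gli2CA replicate 2. Of 10 melanocyte markers 3 were tested, all negative, with Sox10 at -0.85 (SE 0.33, adjusted p = 0.147), and the sums were 59.1 to 104 FPKM in the tumors labelled Gli2CA and 96.6 to 186 FPKM in NTC tumors. Sox10 was the largest part of each of these sums, at 51.5 to 177 FPKM. Of 7 neutrophil markers 5 were tested and 3 were negative, with sums of 39.7 to 43.5 FPKM in the tumors labelled Gli2CA and 19.6 to 41.5 FPKM in NTC tumors.

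These counts depended on how libraries were weighted and scaled. With sample weights 8 members passed, 7 lower (Ctsb, Ctsf, Gaa, Man2b1, Psap, Grn and Tfeb) and 1 higher (Ctsl), where 10% of all tested genes passed. With protein-coding genes alone, rescaled, 6 members passed, all lower (Ctsb, Ctsf, Gaa, Man2b1, Grn and Tfeb), where 5.52% of genes did, 106 higher and 630 lower, and the member median was -0.57 beside a median of all genes of -0.29. Without 1 tumor 0 members passed, and the count over all genes, 55 with all 6 tumors, lay between 4 and 97.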

How the data were processed

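Whole-tumor RNA was enriched for messenger RNA on poly-T beads and primed with random hexamers, per the labels' protocols. The deposited table gives FPKM made by the authors for 54532 Ensembl gene identifiers in 6 samples. How reads were aligned and counted, on which build and annotation and with or without strand: not given in the sources used here. Columns were matched to samples by their description labels. Symbols and lengths came from GENCODE M21 on GRCm38 (54409 genes with a length).

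FPKM multiplied by the mean transcript length was divided by a step fitted for each sample. The step was chosen so that low values of genes with 1 transcript came out near whole numbers. After the division 98.8% of values under 20 fragments were whole to within 0.1, a share that the fit itself raised. Genes with several transcripts were not used in the fit. Of their values under 20 fragments, 97.0% to 97.6% were whole in each sample, so fragments could be recovered.

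The main test was limma 3.58.1 in R 4.3.3 (lmFit, eBayes with a variance trend) on log2(FPKM + 0.5), fitted to all 15820 genes whose FPKM averaged 0.5 or more, two-sided, with Benjamini-Hochberg adjustment over all of them and a threshold of 0.05. Every adjusted p is from this fit unless another tool is named. Fold changes on this scale understate those of low genes.

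Values of every sample are given for members that passed, for the 2 of each role with the smallest p, or all of a role with 3 or fewer; Ctsl, Lipa, Cd68 and the within-tumor ratios were added after their values were seen. For each list of other lysosomal genes the 2 with the smallest p are named, except for the other acid hydrolases, whose single genes are not reported here. The members and lists were chosen with earlier results of these data known. Alternatives were other pseudocounts (1 and 0.1), filters (1 or none) and scalings, removal of a length or GC trend per sample, sample weights, no variance trend, robust eBayes, limma-voom on recovered fragments, a replicate block and leaving out each sample. Python 3.11.15, numpy 2.4.6, pandas 2.3.3, scipy 1.17.1 and matplotlib 3.10.9 were used.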

Additional observations from a re-analysis of the deposited data

How the results depend on the processing

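The count of genes called over the whole table was 55, and it was 145 with a filter at a mean FPKM of 1, 3 with no filter, 36 with quantile normalization, 736 with protein-coding genes alone, rescaled, 1588 with sample weights, 101 with robust eBayes and 106 with limma-voom. Leaving out 1 sample gave 4 to 97: 9, 97 and 6 without Gli2CA replicates 1, 2 and 3, and 7, 4 and 18 without NTC replicates 1, 2 and 3. The count of members called was 0 with all 6 samples and 0 in every fit without 1 sample, 6 with protein-coding genes rescaled and 8 with sample weights. With a replicate block, 1928 genes (12.2%) and 6 members passed (Ctsf, Gaa, Man2b1, Psap, Grn and Tfeb, all lower). Same-numbered samples deviated together with correlations of 0.353, 0.221 and 0.0237. Differently numbered samples were not compared in this way, so these correlations cannot show whether the numbers pair the samples. The main fit left the samples unpaired, and its count of 0 members holds for that choice. The cause of the differences between these counts was not tested.

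The median of the acid hydrolases moved to -0.61 with protein-coding genes rescaled, -0.25 with the gene length trend removed and -0.31 with the GC trend removed, and that of the proton pump subunits to -0.40 with protein-coding genes rescaled and -0.01 with the length trend removed. Without 1 sample the cathepsin median, -0.37 with all samples, ran from -0.56 (without NTC replicate 2) to -0.23 (without NTC replicate 3), the hydrolase median from -0.48 to -0.33, and the pump median, -0.20 with all samples, from -0.30 (without Gli2CA replicate 1) to -0.10 (without Gli2CA replicate 2). Of 680 comparisons of a member with an alternative, 641 kept the direction and the side of the threshold, 20 passed only in the alternative and 19, in 6 members near 0, changed sign. With quantile normalization Ctsd stood at -0.10, Ctsh at -0.11, Lamp2 at -0.09 and Mcoln1 at 0.05, and with protein-coding genes rescaled Ctsd stood at -0.07, Ctsh at -0.10, Lamp2 at -0.11 and Atp6v1h at -0.11. With the length trend removed Ctsh stood at -0.07 and Neu1 at 0.01, and with the GC trend removed Lamp2 stood at -0.17, Neu1 at 0.03, Mcoln1 at 0.14 and Atp6v1h at -0.02. Mcoln1 stood at 0.00 with median-ratio scaling. Without 1 sample Ctsh ran from -0.03 to 0.32, Mcoln1 from -0.14 to 0.06 and Atp6v1h from -0.03 to 0.18.

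With 3 tumors per group the intervals of most members span a log2 range of about 1 or more. Estimates as far from 0 as -1.48 (Gpnmb) and -1.45 (Gaa) did not pass the threshold, so changes of such sizes, and smaller ones, can be missed.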

Other observations

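The log2 fold changes of members went with their base composition more than with their length. Across the 34 members, Pearson's r was -0.47 with the GC content of the transcripts and 0.00 with log2 length (Spearman's rho -0.45 and -0.02). Over 15805 tested genes with a length, r was -0.24 with GC content and -0.36 with log2 length. These are descriptions across genes, which share the same 6 libraries and are not independent replicates. The 17 shorter members, with mean transcript lengths of 926 to 1547 bases, and the 17 longer ones, of 1569 to 2756 bases, both had a median of -0.37.

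Some members share exon bases with a gene on the opposite strand, and the sources used here do not say whether the authors counted by strand. Ctsl shares 26.8% of its exon bases with the antisense gene Gm47123, which is listed at 0, and Npc1 4.52% with Rmc1, at a mean of 14.7 FPKM against 17.1 FPKM for Npc1. Ctsb shares 12.8% of its exon bases with Fdft1, Ctsa 10.5% with Pltp, Hexa 12.8% with Tmem202 and Lamp1 9.31% with Grtp1, and the mean FPKM of these 4 partners was 26.0, 71.2, 3.08 and 1.76 over the 6 tumors.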
